A study of Mus musculus with 22 samples.

Results

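Transcript levels of 34 genes of cholesterol and fatty acid synthesis were followed in CD8+ T cells with and without VHL. The genes were picked by name and function, and all 34 were found among the 46297 rows of the expression table. They comprise 7 genes of the mevalonate pathway (Acat2, Hmgcs1, Mvk, Pmvk, Mvd, Idi1 and Fdps), 11 enzymes that build sterols from farnesyl diphosphate (Fdft1, Sqle, Lss, Cyp51, Tm7sf2, Msmo1, Nsdhl, Hsd17b7, Ebp, Sc5d and Dhcr7) and 5 genes that control them (Srebf1, Srebf2, Scap, Insig1 and Insig2). The others are 3 genes of sterol transport and efflux (Stard4, Abcg1 and Abca1) and 8 genes of fatty acid synthesis and modification (Acly, Acaca, Fasn, Scd1, Scd2, Elovl6, Fads1 and Fads2). Of these, 32 reached the level required for testing, 10 or more scaled counts in 2 or more libraries. Scd1 and Fads2 did not: Scd1 had reads in 8 of 22 libraries, at most 10 in a library, and Fads2 in 6 libraries, at most 4.

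The cells were P14 CD8+ T cells, which carry a transgenic receptor for a viral peptide, from C57BL/6 mice aged 6 to 12 weeks, with 5 mice to each biological replicate. RNA sequencing covered 22 libraries in 10 groups, wild type (WT) and VHL-deficient in each setting: day 7 spleen, day 7 tumor cells that were not split further, tumor cells of day 7 split by sorting into Trm (tissue-resident memory) and nonTrm, and day 11 tumor. Day 11 tumor had 3 libraries per genotype and every other group had 2. The label VHL, or V, was read as VHL-deficient, and every such library had 0 to 32 Vhl reads against 60 to 280 in each WT library; the sources used here do not give how the gene was removed, which tumor it was, or the markers behind the Trm sort.

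Cholesterol is built from acetyl-CoA through mevalonate, squalene and lanosterol. When sterols in the endoplasmic reticulum run low, SCAP carries SREBP proteins to the Golgi, where they are cut and freed to switch on the synthesis genes; INSIG proteins hold SCAP back when sterols are plentiful. SREBP-2, from Srebf2, acts mainly on sterol genes and SREBP-1, from Srebf1, mainly on fatty acid genes, while oxysterols act through LXR receptors to induce the efflux pumps ABCA1 and ABCG1. In CD8+ T cells, activation and division are known to call on new membrane sterols and fatty acids. VHL marks hypoxia-inducible factors (HIF) for degradation when oxygen is present.

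Srebf2 and the synthase gene Hmgcs1 both hold, before their start sites, the sterol regulatory element core TCACCCCA, letters that SREBP is known to bind. Cyp51 and Abca1 are printed beside them because they were among the members with the largest differences below, one an enzyme of synthesis and the other a pump of efflux. Each sequence is the 250 bases before the RefSeq start site (GRCm38.p6, 5′ to 3′ on the gene's own strand). Capitals mark TCACCCCA and the CCAAT box (CCAAT, or ATTGG on the other strand) in Srebf2 and Hmgcs1, the CCAAT box in Cyp51, and the E-box CACGTG in Abca1.
Srebf2 (chr15:82147019-82147268, plus strand): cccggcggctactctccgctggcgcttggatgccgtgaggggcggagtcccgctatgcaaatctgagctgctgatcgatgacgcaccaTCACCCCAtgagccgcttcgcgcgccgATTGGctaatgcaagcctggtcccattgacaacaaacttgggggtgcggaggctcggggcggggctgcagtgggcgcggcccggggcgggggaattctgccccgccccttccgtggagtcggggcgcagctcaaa
Hmgcs1 (chr13:119690101-119690350, plus strand): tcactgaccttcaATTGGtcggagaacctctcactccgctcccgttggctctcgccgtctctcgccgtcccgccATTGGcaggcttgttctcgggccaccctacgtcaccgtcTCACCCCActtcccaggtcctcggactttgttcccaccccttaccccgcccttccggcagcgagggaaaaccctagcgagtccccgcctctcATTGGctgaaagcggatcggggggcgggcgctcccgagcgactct
Cyp51 (chr5:4104698-4104947, minus strand): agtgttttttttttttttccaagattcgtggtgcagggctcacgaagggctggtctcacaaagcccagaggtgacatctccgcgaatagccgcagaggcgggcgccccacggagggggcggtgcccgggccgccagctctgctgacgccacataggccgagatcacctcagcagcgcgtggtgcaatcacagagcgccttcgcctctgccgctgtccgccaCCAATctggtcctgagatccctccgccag
Abca1 (chr4:53159896-53160145, minus strand): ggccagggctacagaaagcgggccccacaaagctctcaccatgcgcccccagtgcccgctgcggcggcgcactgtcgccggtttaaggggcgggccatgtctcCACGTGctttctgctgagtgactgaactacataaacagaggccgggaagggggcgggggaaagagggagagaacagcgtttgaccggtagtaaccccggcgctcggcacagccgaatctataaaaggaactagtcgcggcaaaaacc

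A promoter window in RefSeq's tables, 250 bases before to 50 after the start, was matched for 26 of the 34 members. No window was matched for Fdps, Fdft1, Sqle, Stard4, Abcg1, Scd1, Scd2 and Fads1. Some members have several windows, and a member counts below if any of its windows held the letters. The percentages are of single windows, so the member counts, out of 26, are not measured alike. On both strands, TCACCCCA was found in the windows of 2 members, Hmgcs1 and Srebf2, and in 1.56% of all 32817 windows. The CCAAT box was found for 20 members and in 37.4% of windows, and CACGTG for 6 members (Abca1, Dhcr7, Hsd17b7, Insig1, Sc5d and Scap) and in 7.15%. The HIF core ACGTG, which lies inside CACGTG, was found for 8 members and in 19.6% of windows, and its variant GCGTG for 16 members and in 32.4%. The LXR direct repeat element was searched only in an exact spelling with identical repeats, which was in 0 members' windows and in 0.0152% of all. Variant spellings of this element were not searched. The result therefore does not show that any member, Abca1 included, lacks an LXR element. A match describes these letters and shows no binding.

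Depth differed between the libraries. A library held 3375558 to 10211060 reads assigned to genes, of which the ribosomal gene CT010467.1 made up 26.9% to 45.7% and mitochondrial genes 2.89% to 12.1%. Levels are the scaled counts of the deposited table, reads divided by a size factor for the library, and 1 read was worth 0.684 to 2.73 of them. A log2 fold change (log2FC) is the difference between group means of log2(scaled count + 1), and genes count as called below an adjusted p of 0.05, adjusted over all 14327 genes tested. The spread behind each p-value is that between the libraries. Genotype, tumor against spleen and Trm against nonTrm were compared within 1 column of the library plate, while day, and split against unsplit tumor cells, cannot be told apart from the column. In VHL-deficient nonTrm replicate 2 the ribosomal share was 45.7% and the nuclear RNA Malat1 stood at 34358. VHL-deficient spleen replicate 1 had the fewest reads of all libraries, a ribosomal share of 42.3% and Malat1 at 13571. Malat1 was higher, at 15027, in WT nonTrm replicate 2, whose ribosomal share was 29.6%, against 8634 in WT nonTrm replicate 1. In WT day 11 tumor replicate 2, 6 neutrophil markers summed to 771 (Elane 277, Mpo 198 and S100a9 149), against 0 to 16.4 in each other library. Call counts that move without VHL-deficient nonTrm replicate 2, VHL-deficient spleen replicate 1 or WT day 11 tumor replicate 2 are given beside the results. All 8 CD8+ T cell markers checked (Cd3d, Cd3e, Cd3g, Cd8a, Cd8b1, Cd2, Thy1 and Lck) had reads in every library.

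Per kilobase of exon, the most abundant member was Ebp, the sterol isomerase, at 160 scaled counts per kilobase averaged over the 10 groups. Acly, which makes cytosolic acetyl-CoA from citrate, followed at 142, then Srebf1 at 89.2, Stard4 at 60.7, Hmgcs1 at 59.1 and Pmvk at 57.9. The lowest tested members were Abca1 at 1.68, Tm7sf2 at 2.54 and Acaca, the acetyl-CoA carboxylase, at 3.55. Of the desaturases, Scd2 stood at 38.2 and Scd1 at 0.273 per kilobase. Fatty acid desaturase Fads1 stood at 10.3 and its neighbor Fads2 at 0.148. In each of the 10 groups the mean of Scd2 exceeded that of Scd1, and that of Fads1 exceeded that of Fads2, per kilobase. Libraries of 1 group differed most for Tm7sf2, with a pooled within-group SD of 1.22 on the log2 scale, and least for Mvk, with 0.25; the members' median was 0.48 and that of all tested genes 0.50.

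**Figure D1:**
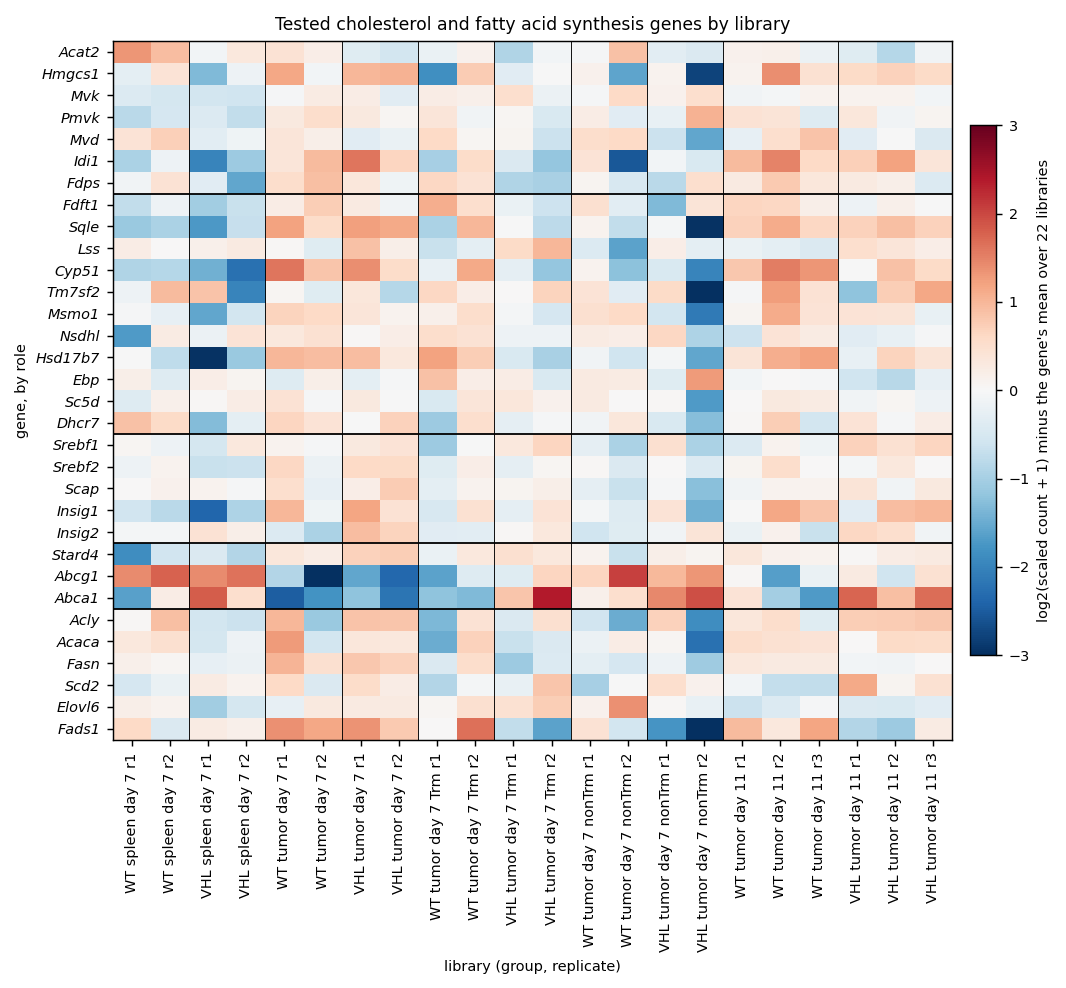
Level of each tested member (rows, ordered by role with black lines between roles) in each of the 22 libraries (columns, by group and replicate), as log2(scaled count + 1) minus the gene's mean over all libraries; red is above and blue below that mean, and colors end at 3 on either side. Abcg1 is red in the 4 spleen libraries and blue in the 4 unsplit day 7 tumor libraries, Cyp51 and Sqle show the opposite colors in those libraries, and VHL-deficient nonTrm replicate 2 is dark blue for many synthesis genes.

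The comparison of day 7 tumor with day 7 spleen asked how the pathway differs between T cells of the 2 sites. The sterol enzymes Cyp51 and Sqle and the sterol carrier Stard4 rose in tumor in both genotypes, and the efflux pump Abcg1 was lower, at 39.8 against 372 in WT cells and 31.7 against 354 in VHL-deficient cells. In WT cells 3 members rose and 1 fell of 32 tested, and in VHL-deficient cells 8 rose and 2 fell. Over all genes, 21.5% were called in WT (13.2% rose and 8.31% fell) and 15.4% in VHL-deficient cells (9.98% rose and 5.47% fell), so the members' share was below the background in WT cells (12.5%) and above it in VHL-deficient cells (31.2%). The members' median log2FC was 0.38 in WT and 0.80 in VHL-deficient cells, beside 0.08 and 0.06 over all tested genes. Tumor and spleen libraries did not overlap for 19 of 32 members in WT cells and 25 in VHL-deficient cells, against 60% and 62.8% of all genes.

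Among the mevalonate genes, 1 of 7 was called, Idi1, the isopentenyl diphosphate isomerase. Idi1 stood at 5.57 and 10.5 in the WT spleen libraries and 15.3 and 23.5 in the WT tumor libraries, and at 2.23 and 4.92 in VHL-deficient spleen and 37.9 and 18.9 in VHL-deficient tumor. Both tumor libraries lay above both spleen libraries in each genotype, and the call was in VHL-deficient cells (log2FC 2.67, 95% interval 1.03 to 4.31, adjusted p = 0.0250), beside log2FC 1.20, adjusted p = 0.294 in WT cells. The VHL-deficient spleen libraries held only 1 and 6 Idi1 reads, and the ratio of summed reads was 6.16 with an exact 95% counting interval of 2.79 to 16.1. Hmgcs1 stood at 188 and 305 in the WT spleen libraries and 519 and 216 in the WT tumor libraries, and at 91.6 and 208 in VHL-deficient spleen and 459.9 and 476 in VHL-deficient tumor. For this synthase, which commits acetyl-CoA to mevalonate, the VHL-deficient groups did not overlap but the WT groups did, and neither difference was called (log2FC 0.48, adjusted p = 0.705 in WT and log2FC 1.75, adjusted p = 0.145 in VHL-deficient cells). Mvd stood at 66.8 and 82.8 in the WT spleen libraries and 64.3 and 56.4 in the WT tumor libraries, and at 40.2 and 45.9 in VHL-deficient spleen and 39.2 and 43.3 in VHL-deficient tumor. For this decarboxylase both spleen libraries lay above both tumor libraries in WT cells and the VHL-deficient groups overlapped, and neither was called, with log2FC -0.30 and -0.06.

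Of the 11 sterol enzymes, 2 rose in WT cells and 3 in VHL-deficient cells, and 0 fell. Cyp51 stood at 104 and 108 in the WT spleen libraries and 597 and 348 in the WT tumor libraries, and at 71.5 and 41.02 in VHL-deficient spleen and 518 and 289 in VHL-deficient tumor. Cyp51, the lanosterol demethylase (chromosome 5, 4081145 to 4104746, mm10), was higher in both tumor libraries than in both spleen libraries in each genotype (log2FC 2.09, 95% interval 0.96 to 3.22, adjusted p = 0.00942 in WT; log2FC 2.81, 95% interval 1.68 to 3.94, adjusted p = 0.00121 in VHL-deficient cells). Sqle stood at 51.5 and 57.6 in the WT spleen libraries and 263 and 165 in the WT tumor libraries, and at 33.5 and 69.7 in VHL-deficient spleen and 266 and 249.7 in VHL-deficient tumor. Sqle, the squalene epoxidase and a slow step of the pathway (chromosome 15, 59315077 to 59331192), likewise did not overlap (log2FC 1.91, adjusted p = 0.0438 in WT; log2FC 2.39, adjusted p = 0.0175 in VHL-deficient cells). Hsd17b7 stood at 41.7 and 24.1 in the WT spleen libraries and 83.98 and 79.96 in the WT tumor libraries, and at 4.47 and 18.9 in VHL-deficient spleen and 79.8 and 52.00 in VHL-deficient tumor. This ketosteroid reductase separated the sites in both genotypes and was called in VHL-deficient cells (log2FC 2.65, adjusted p = 0.00312; 2 and 23 reads in the spleen libraries, ratio of summed reads 4.15, 2.68 to 6.65), with log2FC 1.34, adjusted p = 0.101 in WT cells. Msmo1 stood at 131 and 112 in the WT spleen libraries and 215 and 202 in the WT tumor libraries, and at 44.7 and 91.9 in VHL-deficient spleen and 172 and 144 in VHL-deficient tumor. Msmo1, the methyl sterol oxidase, was higher in every tumor than spleen library, and it was not called (log2FC 0.78, adjusted p = 0.219 in WT; log2FC 1.28, adjusted p = 0.0540 in VHL-deficient cells). Lss stood at 138 and 118 in the WT spleen libraries and 120.0 and 91.7 in the WT tumor libraries, and at 132 and 144 in VHL-deficient spleen and 219 and 134 in VHL-deficient tumor. The cyclase Lss, which closes the sterol rings, had log2FC -0.28 in WT and 0.31 in VHL-deficient cells.

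Of the 5 genes that control SREBP, 0 were called in WT cells and 2 rose in VHL-deficient cells. Srebf2 stood at 334 and 400.2 in the WT spleen libraries and 571 and 329 in the WT tumor libraries, and at 232 and 239 in VHL-deficient spleen and 567 and 554 in VHL-deficient tumor. The VHL-deficient tumor libraries lay far above their spleen libraries (log2FC 1.25, 95% interval 0.63 to 1.87, adjusted p = 0.00666), and WT tumor and spleen overlapped (log2FC 0.25, adjusted p = 0.594). Insig1 stood at 96.02 and 80.7 in the WT spleen libraries and 286 and 132 in the WT tumor libraries, and at 26.8 and 74.7 in VHL-deficient spleen and 329 and 194 in VHL-deficient tumor. Insig1, itself an SREBP target that feeds back on SCAP, rose in VHL-deficient cells (log2FC 2.47, 95% interval 1.21 to 3.72, adjusted p = 0.00774) and had log2FC 1.13, adjusted p = 0.190 in WT cells, whose groups did not overlap either. Insig2 stood at 118 and 119 in the WT spleen libraries and 92.7 and 63.5 in the WT tumor libraries, and at 168 and 140.3 in VHL-deficient spleen and 235 and 199 in VHL-deficient tumor. For its partner Insig2 the WT tumor libraries lay below the spleen ones and the VHL-deficient tumor libraries above theirs, with no overlap, and neither difference was called (log2FC -0.62 in WT and 0.50 in VHL-deficient cells). Srebf1 stood at 501 and 429.6 in the WT spleen libraries and 517 and 468 in the WT tumor libraries, and at 335 and 601 in VHL-deficient spleen and 594 and 638 in VHL-deficient tumor. Srebf1 had log2FC 0.08, adjusted p = 0.904 in WT and log2FC 0.45, adjusted p = 0.487 in VHL-deficient cells. Whether the genotypes differ in the tumor-spleen step was tested as an interaction: Srebf2 had log2FC 1.00, 95% interval 0.12 to 1.88, adjusted p = 0.465, Insig2 log2FC 1.12, adjusted p = 0.457 and Insig1 log2FC 1.33, adjusted p = 0.600, and limma called 0 of 32 members, beside 0.0698% of all genes. In that interaction 3 members had an unadjusted p under 0.05, and voom called 0.

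Of the 3 transport genes, 1 rose and 1 fell in WT cells and 1 rose and 2 fell in VHL-deficient cells, and Abcg1 had the largest difference of any tested member in each genotype. Abcg1 stood at 328 and 415 in the WT spleen libraries and 65.4 and 14.1 in the WT tumor libraries, and at 329 and 379.8 in VHL-deficient spleen and 40.6 and 22.8 in VHL-deficient tumor. Abcg1 (chromosome 17, 31057675 to 31117988), which exports sterols to lipoproteins, was lower in every tumor library than in every spleen library (log2FC -3.55, 95% interval -4.89 to -2.20, adjusted p = 5.37e-04 in WT; log2FC -3.49, 95% interval -4.84 to -2.15, adjusted p = 8.23e-04 in VHL-deficient cells). Abca1 stood at 2.78 and 12.6 in the WT spleen libraries and 1.09 and 2.35 in the WT tumor libraries, and at 40.2 and 15.6 in VHL-deficient spleen and 4.06 and 1.58 in VHL-deficient tumor. The second pump, Abca1 (chromosome 4, 53030787 to 53159895), fell in VHL-deficient cells (log2FC -2.86, adjusted p = 0.0159), where the tumor libraries held 2 and 3 reads and the spleen to tumor ratio of summed reads was 8.92 (exact 95% counting interval 3.50 to 29.1). In WT cells each tumor library held 1 Abca1 read, and the spleen to tumor ratio was 5.62 (1.29 to 50.9), not called (adjusted p = 0.198). Stard4 stood at 87.7 and 216 in the WT spleen libraries and 402 and 374 in the WT tumor libraries, and at 235 and 172 in VHL-deficient spleen and 521 and 537 in VHL-deficient tumor. Stard4, which carries cholesterol between membranes, rose in both genotypes (log2FC 1.49, adjusted p = 0.00335 in WT; log2FC 1.39, adjusted p = 0.00699 in VHL-deficient cells), and its groups did not overlap.

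Of the 6 tested fatty acid genes, 0 were called in WT cells and 1 rose in VHL-deficient cells. Fasn stood at 383 and 364 in the WT spleen libraries and 698 and 484 in the WT tumor libraries, and at 293 and 308 in VHL-deficient spleen and 605 and 560.1 in VHL-deficient tumor. Fasn, the fatty acid synthase, was higher in both tumor libraries in each genotype and was called in VHL-deficient cells (log2FC 0.95, adjusted p = 0.0492), with log2FC 0.64, adjusted p = 0.164 in WT cells. Scd2 stood at 138 and 169.7 in the WT spleen libraries and 296 and 143 in the WT tumor libraries, and at 230.2 and 209 in VHL-deficient spleen and 288 and 228 in VHL-deficient tumor. The desaturase Scd2 had log2FC 0.43 and 0.22. Fads1 stood at 57.1 and 27.2 in the WT spleen libraries and 98.2 and 84.7 in the WT tumor libraries, and at 44.7 and 41.8 in VHL-deficient spleen and 97.4 and 64.6 in VHL-deficient tumor. Fads1, the delta-5 desaturase, was higher in tumor in each library of both genotypes, and was not called (log2FC 1.19, adjusted p = 0.186 in WT; log2FC 0.86, adjusted p = 0.391 in VHL-deficient cells). Acly and Elovl6, the elongase of palmitate, had log2FC 1.44 and 1.06 in VHL-deficient cells, adjusted p = 0.166 and 0.0621.

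**Figure D2:**
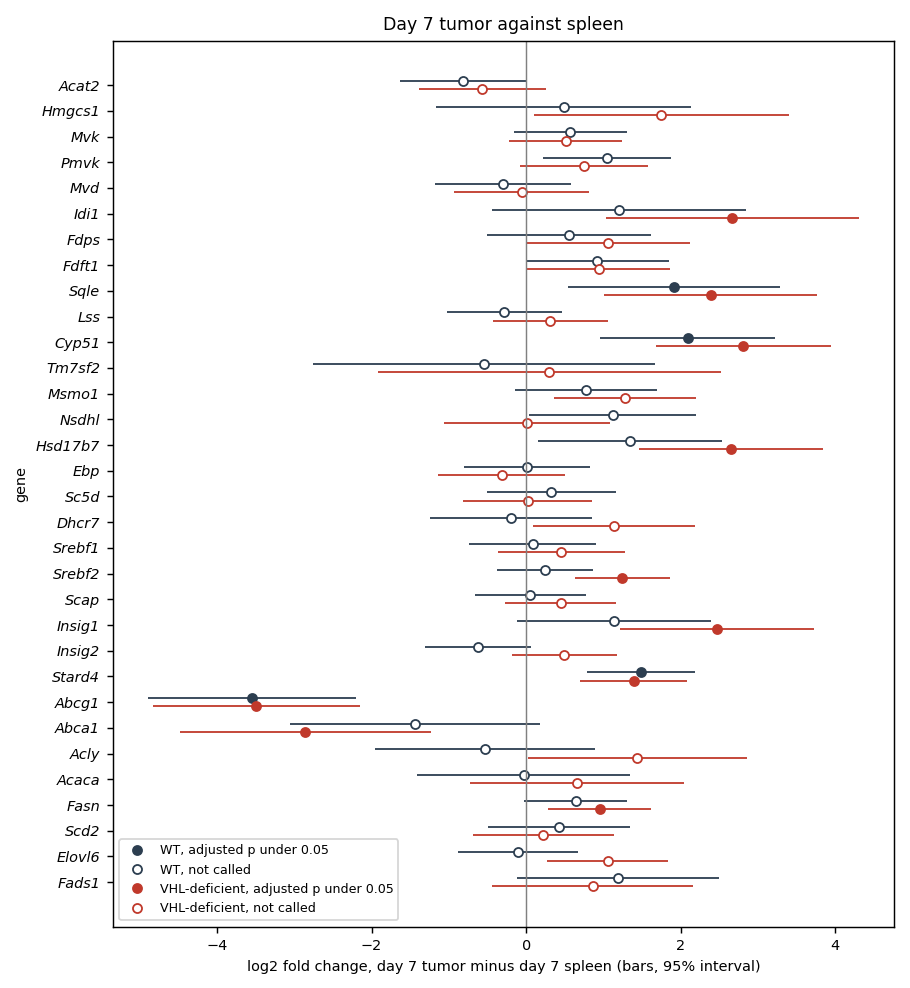
Log2 fold change of each tested member between day 7 tumor and day 7 spleen (x axis; positive is higher in tumor) in WT (dark) and VHL-deficient cells (red), with 95% intervals as bars and filled points for an adjusted p under 0.05. Cyp51, Sqle and Stard4 lie right of 0 with filled points in both genotypes and Abcg1 lies at -3.55 and -3.49.

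Calls in this comparison rest on 2 libraries a group, and the unsplit tumor and spleen libraries are the same ones used below for genotype and day. Without VHL-deficient nonTrm replicate 2, which enters only through the pooled spread, 5 members were called in WT and 12 in VHL-deficient cells. Without VHL-deficient spleen replicate 1, the shallowest library, with 42.3% ribosomal reads, the count in VHL-deficient cells went from 10 to 3, and Cyp51, Stard4 and Abcg1 were the members called. Without WT day 11 replicate 2, 3 members were called in WT cells. Whether read quality in these libraries has a part in the calls was not tested. The Abcg1 calls and the VHL-deficient Cyp51 call held when any of their 4 libraries was left out (adjusted p up to 0.0258, 0.0196 and 0.0370). Sqle in WT cells and Fasn were lost without any 1 of their 4 libraries (up to 0.183 and 0.226), and Stard4 in WT cells without spleen replicate 1 (0.103). In WT cells the Cyp51 call was lost without either spleen library or tumor replicate 1 (up to 0.0773). In VHL-deficient cells, Idi1, Hsd17b7, Srebf2 and Insig1 were lost without spleen replicate 1 or tumor replicate 1 (up to 0.220, 0.101, 0.0616 and 0.154). Sqle was lost there without spleen replicate 1 or either tumor library (up to 0.186), Stard4 without spleen replicate 2 or either tumor library (up to 0.0764), and Abca1 without spleen replicate 1 or tumor replicate 2 (up to 0.184).

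Genes from lists of other pathway genes were compared between the sites in the same fit. The counts below stand beside 21.5% of all tested genes called in WT and 15.4% in VHL-deficient cells. Of 8 tested LXR and oxysterol genes, 0 rose and 2 fell in WT cells and 1 fell in VHL-deficient cells. Ncor1 fell in WT cells (log2FC -0.96, adjusted p = 0.00385), and Lpcat3 was called in neither genotype (log2FC -0.22 in WT and -0.16 in VHL-deficient cells). Arl4c, a small GTPase of this list, fell in both genotypes. It stood at 72.2 against 716 in WT (log2FC -3.30, adjusted p = 7.14e-08) and 115 against 675 in VHL-deficient cells (log2FC -2.56, adjusted p = 2.64e-06). From the list of sterol uptake, transport and storage, Mylip, a ligase that degrades lipoprotein receptors, fell too. It stood at 29.3 against 403 in WT (log2FC -3.75, adjusted p = 5.64e-05) and 41.4 against 298 in VHL-deficient cells (log2FC -2.82, adjusted p = 0.00122). Of 16 lipid droplet and glyceride genes, 5 rose and 1 fell in WT cells and 4 rose and 1 fell in VHL-deficient cells. Dgat1, which makes triglyceride, rose from 88.02 to 1647 in WT cells (log2FC 3.87, adjusted p = 8.02e-05) and from 141 to 2565 in VHL-deficient cells (log2FC 4.06, adjusted p = 6.50e-05), and Plin2, a droplet coat protein, from 48.8 to 208 (log2FC 2.24, adjusted p = 7.36e-04) and from 76.5 to 309.9 (log2FC 2.04, adjusted p = 0.00212). Of 26 other fatty acid genes, 3 rose and 4 fell in WT cells and 4 rose and 3 fell in VHL-deficient cells; Acss2, which makes acetyl-CoA from acetate, fell in both (87.5 against 553 and 143 against 542; log2FC -2.69 and -1.95), and Acsl4 rose in both (log2FC 1.29 and 2.76). Of 14 genes of SREBP processing and degradation, 1 rose and 1 fell in each genotype: Syvn1, a ligase of the endoplasmic reticulum, rose in both (log2FC 1.08 and 1.09), Sec24a, a coat protein of vesicles bound for the Golgi, fell in WT cells (log2FC -0.89) and Fbxw7 in VHL-deficient cells (log2FC -1.36). Of 20 genes of sterol uptake, transport and storage, 1 rose and 2 fell in WT cells and 4 rose and 3 fell in VHL-deficient cells. Tmem97 rose in both (log2FC 1.31 and 1.52) and Osbpl5, an oxysterol-binding protein homolog, fell in both beside Mylip (log2FC -2.70 and -1.86); in VHL-deficient cells Scarb1, Vldlr and Soat1 also rose and Soat2 fell. Among other isoprenoid genes, Rabggta fell in WT cells (log2FC -0.93) and Zmpste24, a protease that trims prenylated proteins, rose in VHL-deficient cells (log2FC 1.73). Of 9 HIF target genes, 7 rose in WT and 6 in VHL-deficient cells.

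Cell division moved with these genes: 12 of 12 division genes rose from spleen to tumor in each genotype. Their summed level was 2387 to 2437 in WT spleen and 14817 to 20907 in WT tumor, and 1746 to 1752 in VHL-deficient spleen and 10085 to 11065 in VHL-deficient tumor; its part in the sterol results was not tested. Of 9 macrophage and monocyte markers, the summed level was 13.9 to 14.7 in WT spleen, 51.3 to 75.3 in WT tumor, 18.0 to 26.8 in VHL-deficient spleen and 24.3 to 45.7 in VHL-deficient tumor. Of these markers, Cd68 and Cd14 rose from spleen to tumor in WT cells and Cd14 in VHL-deficient cells. Of the markers of other cells, the endothelial gene Pecam1 fell in WT cells (238 against 422) and the melanocyte gene Pmel fell in VHL-deficient cells (18.4 against 85.4). Both had reads in every library, unlike the rest of their lists. Cdh5 had 0 reads in 17 libraries, Col3a1 in 15, Col1a2 in 13 and Col1a1 in 12. Median levels of Mlana, Dct, Tyr and Tyrp1 were 0.76, 0.96, 0.38 and 2.97. The T cell genes moved too: Cd8a rose in both genotypes (6722 against 1855 in WT and 9497 against 3202 in VHL-deficient cells), and Cd8b1 (4614 against 14563) and Cd2 (1402 against 3582) fell in VHL-deficient cells. Among the macrophage genes, Csf1r stood at 6.21 at most in any library and Adgre1 had 0 reads in 17 libraries. The part of any of these markers in the sterol results was not tested. In bulk samples, fewer cells of a type and less RNA per cell cannot be told apart.

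VHL-deficient and WT cells were compared to ask what loss of VHL changed in the pathway, in 5 settings. In all, 6 members were called in 1 setting or more: Abca1 rose in day 11 tumor and in Trm cells, Insig2 in unsplit day 7 tumor and Lss in Trm cells, while Fads1 fell in Trm and nonTrm cells and Mvd and Msmo1 in nonTrm cells. The counts of members called were 1 of 32 in day 11 tumor (6.87% of all genes were called, 4.47% upward), 1 in unsplit day 7 tumor (1.91%, 1.68% upward), 0 in spleen (3.18%), 3 in Trm (10.1%, 5.07% upward and 5.03% downward) and 3 in nonTrm cells (2.32%, 0.67% downward). In spleen, limma gave 7 members an unadjusted p under 0.05 and voom also called 0. The members' median log2FC was -0.11, -0.03, -0.36, -0.04 and -0.25 in that order of settings. Over all tested genes the medians were 0.07, 0.03, 0.04, 0.09 and 0.02. The genotypes did not overlap for 9, 11, 18, 12 and 10 of 32 members, against 38.5%, 49.1%, 43.6%, 53.5% and 34% of all genes. Of the 18 in spleen, 15 were lower and 3 higher in VHL-deficient cells. Of 9 HIF target genes, 8 to 9 rose in each setting. Under the other settings of the fit, leave-outs aside, 0 to 6 members were called at day 11, 0 to 1 in unsplit day 7 tumor, 0 in spleen, 0 to 5 in Trm and 0 to 3 in nonTrm cells.

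Abca1 stood at 38.3, 20.8 and 36.6 in VHL-deficient against 14.6, 4.76 and 2.59 in WT day 11 tumor libraries. Each VHL-deficient library was above each WT one (log2FC 2.21, 95% interval 0.89 to 3.54, adjusted p = 0.0391), with 3 to 8 reads per WT library and a ratio of summed reads of 5.42 (exact 95% counting interval 3.24 to 9.65). In the split cells it stood at 19.9 and 59.8 in VHL-deficient against 4.05 and 3.65 in WT Trm libraries, and 30.8 and 43.6 in VHL-deficient against 12.04 and 15.5 in WT nonTrm libraries. Neither pair overlapped, and the Trm difference was called (log2FC 2.88, 95% interval 1.26 to 4.50, adjusted p = 0.0226, 3 and 5 reads in the WT libraries) while the nonTrm one was not (log2FC 1.36, adjusted p = 0.424). In spleen, where the WT libraries held 2 and 12 reads, the ratio was 2.65 (1.40 to 5.31), not called (adjusted p = 0.275), and unsplit day 7 tumor held 1 to 3 reads a library in both genotypes, too few for a fold. Its sister pump Abcg1 stood at 147, 79.9 and 168 in VHL-deficient against 124, 38.05 and 105 in WT day 11 tumor libraries, and at 94.2 and 189 in VHL-deficient against 39.2 and 92.1 in WT Trm libraries, and 238 and 308 in VHL-deficient against 190.4 and 509 in WT nonTrm libraries. Those groups overlapped at day 11 and in nonTrm cells but not in Trm cells, and none was called (log2FC 0.65, adjusted p = 0.496, log2FC 1.14, adjusted p = 0.274 and log2FC -0.20, adjusted p = 0.934). Of the 9 macrophage and monocyte markers, 3 were tested and 0 called in any genotype comparison. Their summed level was 87.3 to 145 in WT day 11 tumor and lower, 52.3 to 79.2, in VHL-deficient day 11 tumor. In Trm cells it was 67.2 to 124 in WT and 60.6 to 102 in VHL-deficient libraries, which overlapped. In spleen it was 13.9 to 14.7 in WT and higher, 18.0 to 26.8, in VHL-deficient libraries. The part of these markers in the Abca1 differences was not tested. The day 11 call was lost without any of the 3 VHL-deficient libraries or WT replicate 2 or 3 (adjusted p up to 0.208), with no filter on low values and with the replicate block. Its WT replicate 2 is the library with neutrophil reads, whose part was not tested. The Trm call was lost without VHL-deficient replicate 2 or either WT library (up to 0.316) and with library weights.

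Stard4 stood at 329, 375 and 389 in VHL-deficient against 407, 352 and 345 in WT day 11 tumor libraries, and at 445 and 398 in VHL-deficient against 279.7 and 399 in WT Trm libraries, and 362 and 338 in VHL-deficient against 345 and 202 in WT nonTrm libraries. It had log2FC -0.01, 0.33 and 0.41, none called.

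Among the SREBP control genes, Insig2 in unsplit day 7 tumor stood at 235 and 199 in VHL-deficient and 92.7 and 63.5 in WT libraries. It rose (log2FC 1.48, 95% interval 0.80 to 2.17, adjusted p = 0.0175), a call lost without either VHL-deficient library or WT replicate 2 (adjusted p up to 0.259), with voom, and in a fit of only those groups (up to 0.119). Elsewhere it stood at 193, 176 and 116 in VHL-deficient against 108, 136 and 77.8 in WT day 11 tumor libraries, 128 and 155 in VHL-deficient against 97.3 and 99.4 in WT Trm libraries, and 116 and 164 in VHL-deficient against 81.3 and 96.6 in WT nonTrm libraries. Its log2FC was positive in all 5 settings, with adjusted p = 0.201 at day 11, 0.339 in Trm, 0.378 in nonTrm and 0.730 in spleen. Srebf1 stood at 774, 656 and 749 in VHL-deficient against 363, 514 and 442 in WT day 11 tumor libraries. There the genotypes did not overlap, and the difference was not called (log2FC 0.73, 95% interval 0.06 to 1.41, adjusted p = 0.186); it passed in 2 of 12 alternatives. In the split cells Srebf1 stood at 604 and 759 in VHL-deficient against 227 and 479 in WT Trm libraries, and 667 and 248 in VHL-deficient against 397 and 250.4 in WT nonTrm libraries (log2FC 1.03, adjusted p = 0.0994 and log2FC 0.37, adjusted p = 0.732). Srebf2 stood at 356, 464 and 373 in VHL-deficient against 396, 541 and 378 in WT day 11 tumor libraries, 311 and 391 in VHL-deficient against 288 and 431 in WT Trm libraries, and 378 and 281 in VHL-deficient against 383 and 278 in WT nonTrm libraries. Its genotypes overlapped in those 3 settings, with log2FC -0.13, -0.02 and 0.00. Insig1 stood at 113, 271 and 284 in VHL-deficient against 142, 320.3 and 257 in WT day 11 tumor libraries, 119 and 192 in VHL-deficient against 103 and 197 in WT Trm libraries, and 191 and 51.8 in VHL-deficient against 137 and 109.7 in WT nonTrm libraries. It too overlapped in those 3 settings, with log2FC -0.14, 0.09 and -0.30. In spleen, by the levels given above, every VHL-deficient library lay below every WT one for both Srebf2 and Insig1, and neither was called.

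Of the sterol enzymes, Lss stood at 175 and 236 in VHL-deficient against 74.3 and 95.7 in WT Trm libraries, and 136 and 95.5 in VHL-deficient against 88.8 and 38.2 in WT nonTrm libraries. Lss rose in Trm cells (log2FC 1.26, 95% interval 0.51 to 2.01, adjusted p = 0.0306), and this call was lost without VHL-deficient replicate 2 or WT replicate 1 (adjusted p up to 0.293), with library weights, with no filter on low values, and in a fit of only those groups (up to 0.0982). The nonTrm groups did not overlap either (log2FC 0.96, adjusted p = 0.185), nor did day 11 tumor, at 168, 151 and 135 in VHL-deficient against 102, 95.9 and 86.5 in WT day 11 tumor libraries (log2FC 0.67, adjusted p = 0.186). Of the 11 sterol enzymes, 8 had a negative log2FC in Trm cells, 9 in nonTrm cells, 9 in day 11 tumor, 9 in unsplit day 7 tumor and 7 in spleen, beside 51.5% to 53.9% of all tested genes with a positive one. Only Lss in Trm and Msmo1 in nonTrm cells were called among them. Msmo1 stood at 129 and 93.9 in VHL-deficient against 150.0 and 194 in WT Trm libraries, and 91.6 and 30.01 in VHL-deficient against 188 and 203 in WT nonTrm libraries. It fell in nonTrm cells (log2FC -1.87, 95% interval -2.79 to -0.95, adjusted p = 0.0251) and had log2FC -0.63, adjusted p = 0.384 in Trm cells. At day 11 it stood at 178, 175 and 114 in VHL-deficient and 142, 292 and 177 in WT libraries (log2FC -0.35).

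Cyp51 and Hsd17b7, both called between tumor and spleen, lay lower in VHL-deficient than in WT Trm cells without passing the test. Cyp51 stood at 163 and 86.96 in VHL-deficient against 169 and 431 in WT Trm libraries, and 143 and 49.1 in VHL-deficient against 209 and 82.3 in WT nonTrm libraries. At day 11 it stood at 193, 361 and 291 in VHL-deficient and 345, 565 and 492 in WT libraries. The groups did not overlap in Trm cells (log2FC -1.17, adjusted p = 0.176), and overlapped in nonTrm cells and at day 11 (log2FC -0.64 and -0.74). Hsd17b7 stood at 30.4 and 20.96 in VHL-deficient against 97.3 and 70.1 in WT Trm libraries, and 40.3 and 13.6 in VHL-deficient against 39.1 and 27.4 in WT nonTrm libraries. Day 11 levels were 36.00, 66.9 and 54.9 in VHL-deficient and 54.7, 89.6 and 97.7 in WT libraries. Again Trm cells alone of these 3 settings did not overlap (log2FC -1.67, adjusted p = 0.0671). The separation was not limited to Trm cells. In spleen, by the levels given above, every VHL-deficient library lay below every WT one for both Cyp51 and Hsd17b7, and neither was called. Hsd17b7 was also lower in each VHL-deficient library of unsplit day 7 tumor, and Cyp51 overlapped there. Sqle stood at 111 and 65.2 in VHL-deficient against 58.1 and 227 in WT Trm libraries, and 107 and 13.6 in VHL-deficient against 120.4 and 66.8 in WT nonTrm libraries. Day 11 levels were 183, 211 and 184 in VHL-deficient and 182, 243 and 174 in WT libraries. The genotypes overlapped in each (log2FC -0.43, -1.19 and -0.04).

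In the mevalonate steps, Mvd stood at 53.4 and 31.8 in VHL-deficient against 75.7 and 51.9 in WT Trm libraries, and 31.5 and 16.4 in VHL-deficient against 72.2 and 76.3 in WT nonTrm libraries. The nonTrm groups did not overlap and Mvd fell there (log2FC -1.66, 95% interval -2.54 to -0.79, adjusted p = 0.0378), while the Trm difference was not called (log2FC -0.59, adjusted p = 0.392). At day 11 it stood at 39.5, 49.96 and 36.6 in VHL-deficient and 41.9, 71.3 and 91.7 in WT libraries (log2FC -0.63). Hmgcs1 stood at 181 and 229 in VHL-deficient against 63.5 and 394 in WT Trm libraries, and 249 and 32.7 in VHL-deficient against 251 and 76.3 in WT nonTrm libraries. Day 11 levels were 343, 374 and 344 in VHL-deficient and 246, 612 and 319 in WT libraries. The VHL-deficient libraries lay within the WT range at day 11 and in Trm cells, and log2FC was -0.04, 0.36 and -0.61. Idi1 stood at 8.37 and 4.66 in VHL-deficient against 5.41 and 17.5 in WT Trm libraries, and 10.9 and 8.18 in VHL-deficient against 15.8 and 1.19 in WT nonTrm libraries. Day 11 levels were 19.7, 28.4 and 15.2 in VHL-deficient and 23.7, 34.9 and 18.2 in WT libraries, with log2FC -0.26, and -0.58 in Trm cells; the WT nonTrm libraries held 21 and 1 reads. Fdps, the farnesyl diphosphate synthase, and Fdft1, the squalene synthase, had log2FC -1.47 and -1.20 in Trm cells, adjusted p = 0.0695 and 0.0880.

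Among fatty acid genes, Fads1 stood at 21.98 and 11.6 in VHL-deficient against 37.8 and 119.8 in WT Trm libraries, and 10.3 and 2.73 in VHL-deficient against 50.4 and 25.04 in WT nonTrm libraries. It fell in Trm cells (log2FC -2.01, 95% interval -3.31 to -0.70, adjusted p = 0.0457) and in nonTrm cells (log2FC -2.50, 95% interval -3.80 to -1.19, adjusted p = 0.0366), where the VHL-deficient libraries held 15 and 1 reads and the WT to VHL-deficient ratio of summed reads was 4.64 (exact 95% counting interval 2.70 to 8.47). At day 11 it stood at 19.7, 16.9 and 44.2 in VHL-deficient and 72.9, 46.8 and 86.5 in WT libraries, and the highest VHL-deficient library was below the lowest WT one, not called (log2FC -1.40, adjusted p = 0.109). The Trm call was lost without VHL-deficient replicate 2 or WT replicate 2 (adjusted p up to 0.374) and in 6 of the 12 alternatives that kept every library (up to 0.0976). Scd2 stood at 428, 205 and 269.9 in VHL-deficient against 186, 118 and 117 in WT day 11 tumor libraries. Every VHL-deficient library was above every WT one, and the difference was not called (log2FC 1.06, 95% interval 0.32 to 1.81, adjusted p = 0.0800). In the split cells Scd2 stood at 167 and 348 in VHL-deficient against 105 and 188 in WT Trm libraries, and 277 and 213 in VHL-deficient against 97.8 and 194 in WT nonTrm libraries (log2FC 0.77 and 0.81). Fasn stood at 325, 320.5 and 348 in VHL-deficient against 429, 419 and 418 in WT day 11 tumor libraries, 161 and 261 in VHL-deficient against 258 and 496 in WT Trm libraries, and 312 and 164 in VHL-deficient against 281 and 243 in WT nonTrm libraries. Day 11 VHL-deficient libraries all lay below the WT ones (log2FC -0.35, adjusted p = 0.461), and Trm and nonTrm gave log2FC -0.80, adjusted p = 0.118 and log2FC -0.21, adjusted p = 0.841.

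The 3 nonTrm calls were lost with every library kept under library weights, with voom, and in a fit of only those groups, and they moved with single libraries. Without VHL-deficient nonTrm replicate 2, 0 members were called there and Mvd, Msmo1 and Fads1 had adjusted p up to 0.219, 0.228 and 0.281 over the leave-outs of that comparison; with either WT library left out, 0 to 1 members were called. Without replicate 1 in its place, which leaves replicate 2 alone in its group, 7 members were called. Without either VHL-deficient nonTrm library, 7 members were called in Trm cells, whose test shares the pooled spread. Without either VHL-deficient unsplit day 7 tumor library, 1 member was called in nonTrm cells. Without WT day 11 replicate 2, 2 members were called in Trm and 2 in nonTrm cells. VHL-deficient nonTrm replicate 2 lay below replicate 1 for Hmgcs1 (32.7 against 249) and Sqle (13.6 against 107).

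**Figure D3:**
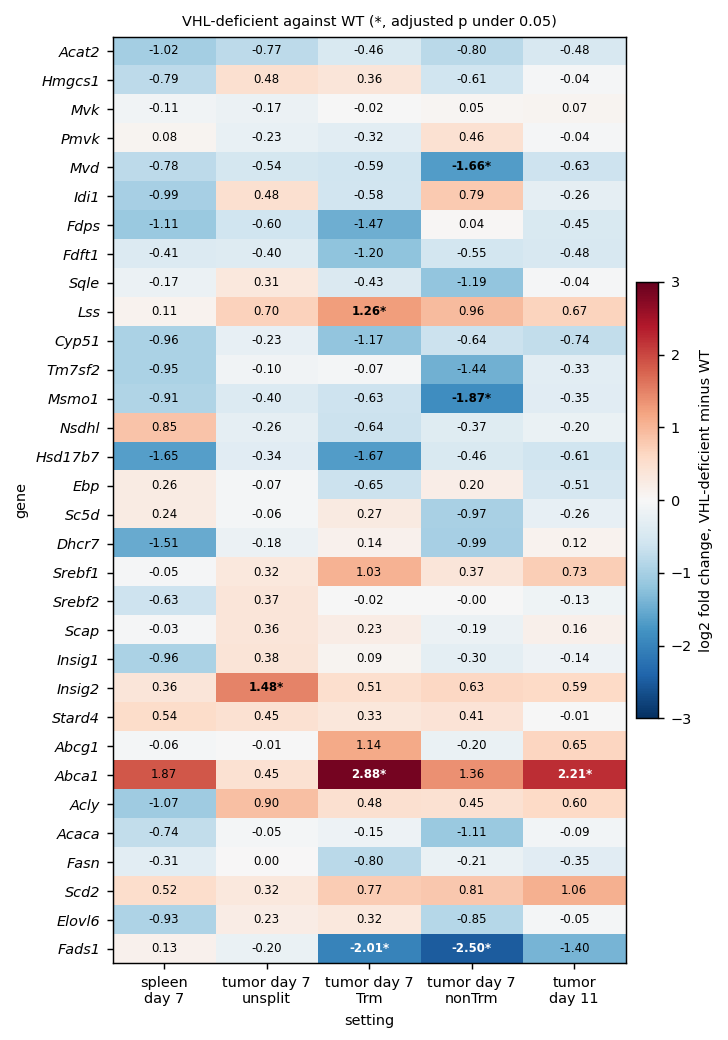
Log2 fold change of each tested member (rows) between VHL-deficient and WT cells in each of the 5 settings (columns); red is higher and blue lower in VHL-deficient cells, and an asterisk marks an adjusted p under 0.05. The Abca1 row has asterisks in Trm and day 11 tumor (its unsplit day 7 tumor value rests on 1 to 3 reads a library), and the Fads1 row is blue with asterisks in Trm and nonTrm.

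**Figure D4:**
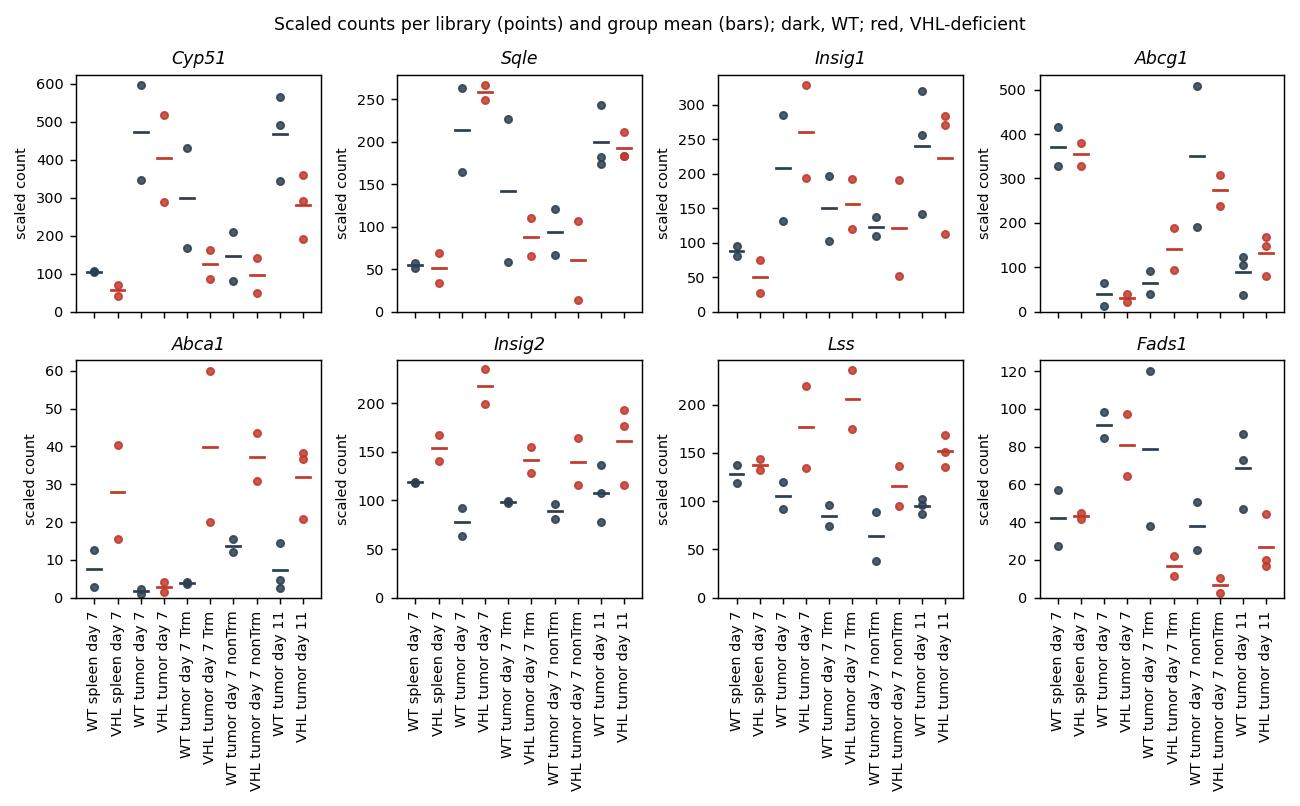
Scaled counts (y axis, from 0) of 8 members in every library (points) of the 10 groups (x axis), with the group mean as a bar; WT is dark and VHL-deficient is red. Abcg1 is highest in spleen and nonTrm cells, and Lss and Abca1 points are higher in VHL-deficient than in WT cells in Trm, nonTrm and day 11 tumor.

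Other genes of lipid handling also differed between the genotypes. Vldlr, the receptor for very-low-density lipoprotein, held 0 to 17 reads a library in WT cells and rose in all 5 settings, with mean levels of 860.0 against 1.59 at day 11, 806 against 1.18 in unsplit day 7 tumor, 169 against 5.75 in spleen, 959 against 10.3 in Trm and 655 against 1.79 in nonTrm cells (adjusted p = 2.66e-08, 9.71e-07, 0.00107, 3.53e-05 and 2.54e-06). Its ratio of summed reads was 423 at day 11 (exact 95% counting interval 194 to 1153), in spleen 33.1 (17.8 to 69.7) and in Trm cells 89.9 (59.7 to 142). Hilpda, a droplet protein that blocks lipolysis, rose at day 11 (3577 against 1020.2, log2FC 1.80, adjusted p = 0.0159), in spleen (436 against 52.4, log2FC 3.08, adjusted p = 0.00129), in Trm (5554 against 1307, log2FC 2.16, adjusted p = 0.0144) and in nonTrm cells (9626 against 1559, log2FC 2.30, adjusted p = 0.0245). Soat1, which esterifies cholesterol for storage, rose at day 11 (594 against 305, log2FC 0.95, adjusted p = 0.0472) and in Trm cells (611 against 274, log2FC 1.15, adjusted p = 0.0396). Rabggtb, a subunit of the enzyme that attaches geranylgeranyl groups to Rab proteins, fell at day 11, in unsplit day 7 tumor, in spleen and in Trm cells (123 against 340.5 at day 11; log2FC -1.46, -1.37, -1.26 and -2.08).

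Of all tested genes, 6.87% were called at day 11, 1.91% in unsplit day 7 tumor, 3.18% in spleen, 10.1% in Trm and 2.32% in nonTrm cells. By list, the sterol uptake, transport and storage genes had 2 of 20 called at day 11 and 2 in unsplit day 7 tumor. Of these 20, 1 was called in spleen, 6 in Trm and 1 in nonTrm cells. In Trm cells 4 of them rose (Vldlr, Soat1, Gramd1a and Osbpl5) and 2 fell (Soat2 and Tmem97). Of 14 genes of SREBP processing and degradation, Erlin2 rose at day 11 (148 against 51.5, log2FC 1.57, adjusted p = 0.00825), Fbxw7, part of the ligase that degrades nuclear SREBP, in spleen (300.0 against 132, log2FC 1.18, adjusted p = 0.0272), and Rnf145, a ligase of the endoplasmic reticulum, in Trm cells (550.0 against 114, log2FC 2.28, adjusted p = 0.00773). Acss2 also rose in Trm cells (327 against 80.8, log2FC 2.00, adjusted p = 0.00310), as did Gpr183, a receptor for oxysterols (792 against 354, log2FC 1.20, adjusted p = 0.00763). Of 16 droplet and glyceride genes, Lpin1, a phosphatidate phosphatase, rose at day 11 and in Trm cells beside Hilpda (log2FC 1.17 and 1.10). Me1, the malic enzyme that makes NADPH, rose at day 11 (16.9 against 2.43, adjusted p = 0.0476) and in Trm cells, at a mean of 25.9 where both WT libraries had 0 reads (adjusted p = 0.0124). Soat2 fell in unsplit day 7 tumor (log2FC -2.87) and Coq2, an enzyme of ubiquinone synthesis, in Trm cells (log2FC -1.83).

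Division genes, mitochondrial reads and 1 dendritic cell marker moved with genotype. Of 12 division genes, 9 fell at day 11 and 10 in Trm cells: their summed level was 4037 to 5019 in VHL-deficient and 13359 to 15180 in WT day 11 tumor, and 3572 to 7456 and 19314 to 21436 in Trm cells. In nonTrm cells 1 of them fell and 11 had a negative log2FC. The mitochondrial share was 2.89% to 3.32% in VHL-deficient and 8.13% to 10.01% in WT day 11 tumor and 4.23% to 5.57% and 11.6% to 12.1% in Trm cells, and 3.45% to 4.08% and 11.4% to 11.5% in nonTrm cells. Xcr1, a chemokine receptor of dendritic cells, rose at day 11 (61.6 to 194), in unsplit day 7 tumor (69.4 to 199) and in Trm cells (76.4 to 433). It was 1 of 6 dendritic markers, of which 2 were tested. The other tested one, Zbtb46, had reads in every library (5.41 to 248, highest in a VHL-deficient day 11 library), and both had a positive log2FC and an unadjusted p under 0.05 in Trm cells. Clec9a had 0 reads in 18 libraries and Flt3 in 13. The summed dendritic markers stood at 298 to 459.6 in VHL-deficient and 111 to 212 in WT day 11 tumor and at 410.3 to 537 and 89.9 to 93.2 in Trm cells. The part of any of these in the members' differences was not tested.

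Trm against nonTrm was compared in each genotype and limma called 0 of 32 members in either, and 0.3% of all genes in WT and 0.00698% in VHL-deficient cells. At an unadjusted p under 0.05 there were 2 members in WT and 5 in VHL-deficient cells, and voom called 0 in both. The median log2FC of the members was 0.20 in WT and 0.38 in VHL-deficient cells, beside 0.04 and 0.02 over all genes. The largest WT difference was Abcg1, at 39.2 and 92.1 in Trm and 190.4 and 509 in nonTrm libraries, which did not overlap (log2FC -2.35, 95% interval -3.70 to -1.01, adjusted p = 0.117). In VHL-deficient cells it stood at 94.2 and 189 in Trm and 238 and 308 in nonTrm libraries (log2FC -1.01, adjusted p = 0.658). Trm and nonTrm libraries did not overlap for 7 of 32 members in WT cells and 11 in VHL-deficient cells, against 39.7% and 24.6% of all genes. Without VHL-deficient nonTrm replicate 1, which leaves replicate 2 alone in its group, 10 members were called in VHL-deficient cells. Of the 12 division genes, 4 rose in Trm over nonTrm cells in WT and 0 in VHL-deficient cells, where 6 had an unadjusted p under 0.05 by limma. The genotype step was not shown to differ between Trm and nonTrm cells for any member: Fads1 had interaction log2FC 0.49, adjusted p = 0.877, Abca1 log2FC 1.52, adjusted p = 0.708, Lss log2FC 0.30, adjusted p = 0.866, Mvd log2FC 1.07, adjusted p = 0.638 and Msmo1 log2FC 1.24, adjusted p = 0.631. Limma called 0 of 32 members in that interaction, and 0% of all genes, 3 had an unadjusted p under 0.05, and voom called 0.

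Day 11 tumor and unsplit day 7 tumor were compared in each genotype, and they differ in plate column as well as day. Limma and voom called 0 of 32 members, and 0% of all genes, in both genotypes. At an unadjusted p under 0.05 there was 1 member in WT cells, Abcg1 (124, 38.05 and 105 on day 11 and 65.4 and 14.1 on day 7, log2FC 1.34, adjusted p = 1.00). In VHL-deficient cells there were 4. Abcg1 stood at 147, 79.9 and 168 on day 11 and 40.6 and 22.8 on day 7 (log2FC 2.01, adjusted p = 0.784) and Abca1 at 38.3, 20.8 and 36.6 on day 11 and 4.06 and 1.58 on day 7, with 2 and 3 reads on day 7 and a ratio of summed reads of 12.5 (exact 95% counting interval 5.19 to 39.2; adjusted p = 0.725). Fasn (log2FC -0.81, adjusted p = 0.944) and Fads1 (log2FC -1.65, adjusted p = 0.903) were the other pair. The VHL-deficient groups of the 2 days did not overlap for 13 of 32 members, these 4 among them, against 30.1% of all genes, and the WT groups for 3 of 32, against 17.5%. The interaction of genotype with day called 0 members, and 0% of all genes, by limma and voom, with 1 at an unadjusted p under 0.05, Insig2 (log2FC -0.89, adjusted p = 1.00).

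The tested members not given library by library were Acat2, Mvk, Pmvk, Fdps, Fdft1, Tm7sf2, Nsdhl, Ebp, Sc5d, Dhcr7, Scap, Acly, Acaca and Elovl6, and 0 of these 14 were called in any of the 14 comparisons. Acat2, the cytosolic thiolase, had a negative log2FC in all 5 genotype settings, from -1.02 to -0.46. Mvk, the mevalonate kinase, had genotype log2FC from -0.17 to 0.07. Scap ranged from -0.19 to 0.36. Some libraries of 1 group differed widely in depth: Hmgcs1 was lower in the shallower library in 8 of 8 groups of 2, and Srebf1, Srebf2 and Scap in 7. In all 4 of 32 members (12.5%) were lower there in 7 or more groups, against 12.2% of all tested genes. The members' median log2 difference, shallower minus deeper library, was -0.86 in VHL-deficient nonTrm, -0.47 in WT Trm and -0.36 in WT nonTrm cells. It was -0.24 in unsplit WT day 7 tumor and -0.15 and -0.16 in VHL-deficient and WT spleen. In VHL-deficient Trm cells it was -0.16, and in unsplit VHL-deficient day 7 tumor 0.23. Over all tested genes it lay between -0.05 and 0.07. The part of depth in the members' differences was not tested. Exons of Fdps overlap those of Gm43738 on the same strand over 26.7% of their length, and Tm7sf2 overlaps Vps51 on the same strand over 12.1%. On the other strand, Fdft1 overlaps Ctsb over 18.3%, Scap overlaps 5830462I19Rik over 13.2% and Hmgcs1 overlaps Gm48342 over 12.1%. Also on the other strand, Idi1 overlaps Gm48574 over 9.22% and Cyp51 overlaps Akap9 over 3.76%. Whether reads were counted by strand is not given in the sources used here, so reads of these pairs may not be told apart.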

How the data were processed

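RNA sequencing covered 22 libraries of P14 CD8+ T cells in 10 groups. Reads were aligned to mm10 with STAR, counted with featureCounts and scaled with DESeq, per the submitters' processing notes; the sources used here give no versions. The deposited table holds a signal per gene and library: counts divided by the authors' size factor, plus 1. Its header gives 55 samples and the table has 22 sample columns; the sources used here do not say whether the factors were set over more libraries. The offset of 1 was removed, and dividing by each library's smallest step gave whole reads for 100% of values (tolerance 0.01 reads).

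Genes reaching 10 scaled counts in 2 or more libraries entered the test (14327 genes, 32 of 34 members). In 1 limma fit (3.58.1, R 4.3.3; trended eBayes, 12 residual degrees of freedom), log2(scaled count + 1) was modelled by group, with 14 two-sided comparisons and Benjamini-Hochberg adjustment over all genes in each. Limma p-values are from this fit, except those given for an alternative or with a library left out, which come from separate fits. Each biological replicate pooled 5 mice, per the labels. On simulated data of this size, 4-fold changes were recovered in 100% of genes at day 11 and 97% in unsplit day 7 tumor. For 2-fold changes these shares were 64% and 39%, and 6 of 170 calls and 20 of 156 were false. The simulated counts had the same set dispersion for every gene, not that of these libraries. Only genes above a floor of mean level were changed. The recovery may therefore not hold for the members, least for those at low levels such as Abca1 and Idi1. Counting intervals are exact and cover counting error only. Tables and figures were made with Python 3.11.15, numpy 2.4.6, pandas 2.3.3 and matplotlib 3.10.9.

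All 34 members are accounted for. Every library's values are given, for at least 1 comparison, for each called member and for Srebf1, Srebf2, Insig1, Hmgcs1, Sqle, Fasn, Scd2, Abcg1 and Abca1, and called genes of the lipid pathway lists are named or counted; 1 result is not reported here. Of 143 other pathway genes, 2 (Spring1 and Apoc2) were not matched in the table. The members and lists were chosen with earlier results of these data known. Promoter sequences are from RefSeq (GRCm38.p6) and gene positions from GENCODE M21 (mm10). Alternatives were other scalings, filters, pseudocounts, library weights, a fit of only the groups compared, a replicate block, voom and leaving out each library.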

Additional observations from a re-analysis of the deposited data

How the results depend on the processing

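Over 138 results for single genes, 0 changed direction as a call under any alternative, 132 alternative values lost a call and 19 gained one. The number of members called moved more. At day 11 (1 member by genotype) it was 0 with no filter on low values, 6 in a fit of only the groups compared, 5 with library weights and 2 with voom. In unsplit day 7 tumor (1) it was 0 with voom and 0 in a fit of only the groups compared. In Trm cells (3) it was 1 with no filter, 0 with library weights, 5 with voom and 1 in a fit of only the groups compared. In nonTrm cells (3) it was 1 with no filter, 1 by eBayes without a trend, and 0 with library weights, with voom and in a fit limited to the groups compared. For day in VHL-deficient cells (0) it was 3 with library weights and 2 in a fit of only the groups compared. Between tumor and spleen, 3 to 4 members were called in WT and 8 to 15 in VHL-deficient cells under the alternatives that kept every library. With the replicate number as a block, 0 members were called at day 11, 1 in unsplit day 7 tumor, 0 in spleen, 3 in Trm, 2 in nonTrm cells, 3 and 9 between tumor and spleen in WT and VHL-deficient cells, and 0 in every other comparison. Same-numbered libraries share only a number: the 3 day 11 pairs had correlations of 0.0427, 0.105 and 0.104 over genes, and groups of 2 libraries give 1 correlation each, 0.236 between the genotypes in Trm, 0.271 in nonTrm, 0.118 in spleen and 0.0291 in unsplit day 7 tumor, which is no check over 3 pairs. Trm and nonTrm numbers correlated at -0.148 in WT and -0.181 in VHL-deficient cells, and a crossed replicate block called 0 members in both. Voom and the crossed block were chosen after seeing the data. Over all genes, voom called 1370 at day 11 (984 by limma), 183 in unsplit day 7 tumor (273), 270 in spleen (455) and 161 between WT Trm and nonTrm cells (43), and the replicate block 16 there. Leaving out 1 library at a time gave 0 to 1 members at day 11, 0 to 1 in unsplit day 7 tumor, 0 to 1 in spleen, 0 to 7 in Trm, 0 to 7 in nonTrm, 0 to 10 between VHL-deficient Trm and nonTrm cells, 1 to 5 and 3 to 12 between tumor and spleen in WT and VHL-deficient cells, and 0 to 3 in the interaction of genotype with subset; the other comparisons stayed at 0. A lone library left in a group is assumed to vary like the other groups. The planned count test on whole reads was not run, because the offset in the table kept its columns from being entered as reads. Groups of 2 libraries and members under 10 reads a library, such as Abca1, Idi1 and Fads1 in some groups, limit what could be called.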
